A study of Mus musculus with 4 samples.

Results

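Amino acid transporter genes were examined in mouse CD4 and CD8a double-positive (DP) thymocytes labelled as Cxxc1 knockout (KO) and in their controls. The genes were chosen by symbol alone, as all members of the solute carrier families Slc1, Slc3, Slc6, Slc7, Slc36, Slc38 and Slc43 whose symbol ends in the letter a and a number. This gave 60 genes of the 35976 symbols counted. The cells were sorted from thymus as CD24+, TCRb-, CD4+ and CD8a+, and 2 bulk RNA-seq libraries per genotype were made. KO mice were Cxxc1 F/F with Lck-cre and control mice were Cxxc1 +/+ with Lck-cre, so both genotypes carried the Cre transgene, which the Lck promoter drives in T-lineage cells. Neither age nor sex is stated in the labels. Whether each library is a separate animal is not stated either, and the p-values below therefore cover the spread of these libraries alone, which may be technical. The question addressed was which amino acid carriers differ in RNA level between these genotypes, Cxxc1 being a protein that binds unmethylated CpG DNA and recruits histone H3 lysine 4 methylation.

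Amino acids are charged or polar and cross membranes only through carriers. Light chains of the Slc7 family, such as Slc7a5 and Slc7a11, pair with the heavy chain Slc3a2 (CD98) and exchange one amino acid for another. Slc1a5 and the Slc38 carriers bring in neutral amino acids such as glutamine with sodium. Slc43a1 and Slc43a2 move large neutral amino acids without sodium, and the Slc36 carrier Slc36a1 moves small ones with protons. The Slc6 family also carries taurine, creatine and neurotransmitters. In T-lineage cells, surface carriers of leucine and glutamine feed protein synthesis and the mTORC1 growth pathway during proliferation, and DP cells are mostly small and resting.

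The libraries held 36243182 and 33544428 counts in KO 1 and KO 2, and 12150508 and 34820446 in control 1 and control 2. Levels are given as CPM, counts divided by the TMM-scaled library total and set to a common total, and fitted differences as log2 fold changes of KO over control ± standard error. The Cxxc1 transcript had 35.7 and 39.4 CPM in KO 1 and KO 2, against 111 and 53.5 CPM in control 1 and control 2 (log2 fold change -1.12 ± 0.34, adjusted p = 0.199 in edgeR's quasi-likelihood test). The loss of Cxxc1 therefore rests on the label. Its CPM was lower in both KO libraries, but the difference did not pass the test and the level was not near 0. All 11 DP marker genes were detected in every library, with summed levels of 5643 and 8282 CPM in the KO libraries and 11884 and 15357 CPM in the control libraries. Of these 11, Cd4, Cd8a and Dntt were lower in the KO by the test and 8 did not pass, among them Ptcra, with 49.9 and 26.5 CPM in KO libraries and 13.5 and 4.27 CPM in control libraries (2.13 ± 0.55, adjusted p = 0.138). Of 6 markers of the earlier double-negative (DN) stage, Il2ra, Il7r and Notch3 were higher and 3 did not pass. Of those 3, Cd44 pointed the other way, with 11.7 and 15 CPM in KO libraries and 30.3 and 35.2 CPM in control libraries (-1.30 ± 0.32, adjusted p = 0.124), Kit overlapped, and Hes1 had 16.8 and 3.03 CPM in KO libraries and 0 and 0.115 CPM in control libraries. The DN list summed to 676 and 403 CPM in KO libraries against 135 and 121 CPM in control libraries. Marker sums for erythroid cells were 38 and 26.2 CPM in KO libraries and 8.66 and 14 CPM in control libraries. The alpha and beta globin genes were at 0 in both control libraries, and 1 of the 6 markers, Hba-a1, was higher by the test. These globin genes, like Hes1, passed the filter on low counts through the KO libraries alone and so had to be higher. B cell markers summed to 10.8 and 7.92 CPM in KO libraries and 9.67 and 8.02 CPM in control libraries. Myeloid and dendritic markers summed to 32.9 and 54.4 CPM in KO libraries and 21.5 and 35.5 CPM in control libraries. Thymic stroma markers summed to 116 and 152 CPM in KO libraries and 131 and 163 CPM in control libraries, most of it Pecam1. Within this list Epcam had 11.6 and 15.1 CPM in KO libraries and 1.09 and 4.88 CPM in control libraries. It did not pass the test (2.11 ± 0.65, adjusted p = 0.21). Krt8 and Foxn1, both at low levels, were lower in both KO libraries. Both passed the filter on low counts through the control libraries alone and so had to be lower. Krt5 had 2 and 0 counts in KO libraries and 11 and 2 counts in control libraries, and the rest overlapped. In bulk libraries, a different share of cells and a different RNA level per cell cannot be told apart, and the part of these marker differences in the results below was not tested.

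Most amino acid transporter genes had little or no RNA in DP cells. Of the 60, 20 had a mean of at least 10 CPM in KO or control libraries, 28 others had enough counts to be tested, and 12 did not pass the filter on low counts. Those 12 had at most 29 counts in any library, and they included Slc1a1, Slc1a3, Slc1a6, Slc1a7, Slc7a10, Slc7a12, Slc7a13, Slc36a2 and Slc38a11. The 20 genes of at least 10 CPM made up 98.6% and 98.3% of the summed level of all 60 in the KO libraries, and 96.9% and 98.4% in the control libraries. Slc38a2 ranked first in all 4 libraries by level per kilobase of exon, a scale that divides by the exon length joined over all isoforms. It had 29.7 and 24.2 CPM per kilobase in KO 1 and KO 2 and 40.2 and 47.1 in control 1 and control 2. Slc43a2 ranked 9 and 3 in KO 1 and KO 2, and 2 in both control libraries. Slc38a1 ranked 2 in both KO libraries and 3 in both control libraries. Slc7a11 ranked 19 and 13 in the KO libraries, and 9 and 4 in the control libraries. Slc1a5, Slc6a6, Slc38a10, Slc3a2 and Slc43a1 lay close together, with means of 11.7 to 14.4 CPM per kilobase in KO libraries and 9.64 to 13.7 CPM per kilobase in control libraries, and libraries of 1 genotype placed these 5 in different orders. The order depends on the length used. By CPM, Slc38a1 was above Slc38a2 in KO 1 (464 against 263), KO 2 (334 against 214) and control 1 (375 against 356). In control 2 it was below Slc38a2 (346 against 416).

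**Figure D1:**
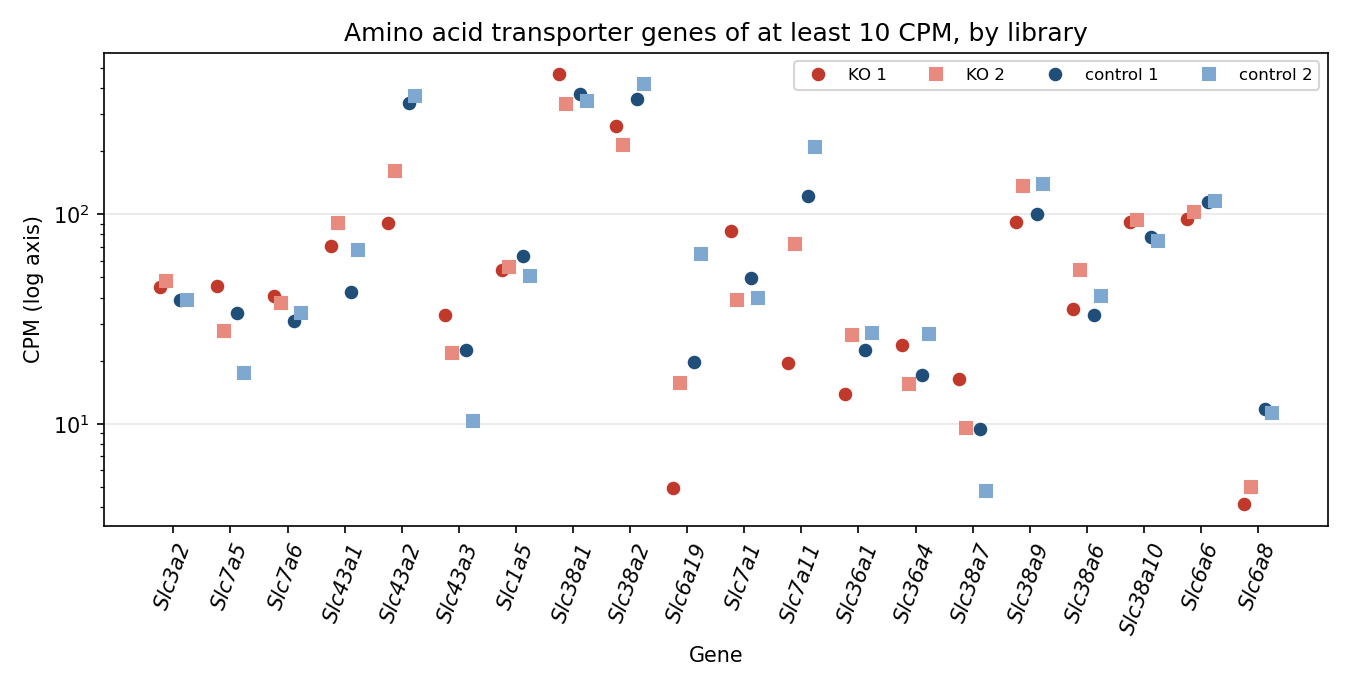
Level of each of the 20 amino acid transporter genes of at least 10 CPM in the 4 libraries, in CPM on a log axis, with KO libraries in red to the left of control libraries in blue. For Slc43a2, Slc38a2, Slc6a19, Slc7a11 and Slc6a8 both KO points lie below both control points, and Slc1a5 and Slc38a9 have overlapping points.

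Of the 48 tested members, 0 differed between genotypes at an adjusted p below 0.05 by edgeR's quasi-likelihood test, against a share of 0.451% called over all 20389 tested genes (0.27% higher and 0.181% lower). At an unadjusted p below 0.05 there were 11, 10 of them lower and 1 higher in the KO, which is 22.9% of the 48 against 13.9% of all tested genes (6.91% lower and 6.97% higher). Of the 10 lower members, Slc1a2, Slc6a2 and Slc7a9 passed the filter on low counts through the control libraries alone and so had to be lower, and nothing is read from this share or its split. DESeq2 called 4 of the 48 (Slc43a2, Slc7a11, Slc6a19 and Slc6a2, all lower), or 8.33% against 4.74% of all genes with an adjusted p. Of these 4, Slc6a2 had to be lower for the same reason, and nothing is read from this share or its direction. The newer quasi-likelihood setting of edgeR called 0 against 0.53%. The other settings also moved the share over all genes. It was 0.456% with DESeq2's size factors and 0.348% with library totals only, where 0 members were called in both. It was 3.01% with no filter on low counts, where 3 members were called, 2.02% with a minimum of 5 CPM in 2 libraries, where 1 was, and 7.84% with a term for the replicate number, where 5 were. With 1 library left out it was 0.0441% without KO replicate 1, 0.505% without KO replicate 2, 2.72% without control replicate 1 and 3.04% without control replicate 2, with 0, 2, 5 and 2 members called in that order. The groups did not overlap for 26 of the 48 members, 7 of them higher and 19 lower in the KO, or 54.2% against 46.8% of all tested genes (22.8% higher and 24% lower). The 19 lower ones include 5 that passed the filter through the control libraries alone. Among the 20 genes of at least 10 CPM, point estimates were split evenly, 10 higher and 10 lower, with a median log2 fold change of 0.05 against 0.07 for all 9774 tested genes of that level. The median size of the change, either way, was 0.37 for those 20 and 0.32 for all genes of that level. Changes of at least 1 on the log2 scale were found in 4 of the 20, or 20%, against 10.3% of all genes of that level. The evenly split median therefore sat beside a few large differences, which were those of Slc43a2, Slc7a11, Slc6a19 and Slc6a8.

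**Figure D2:**
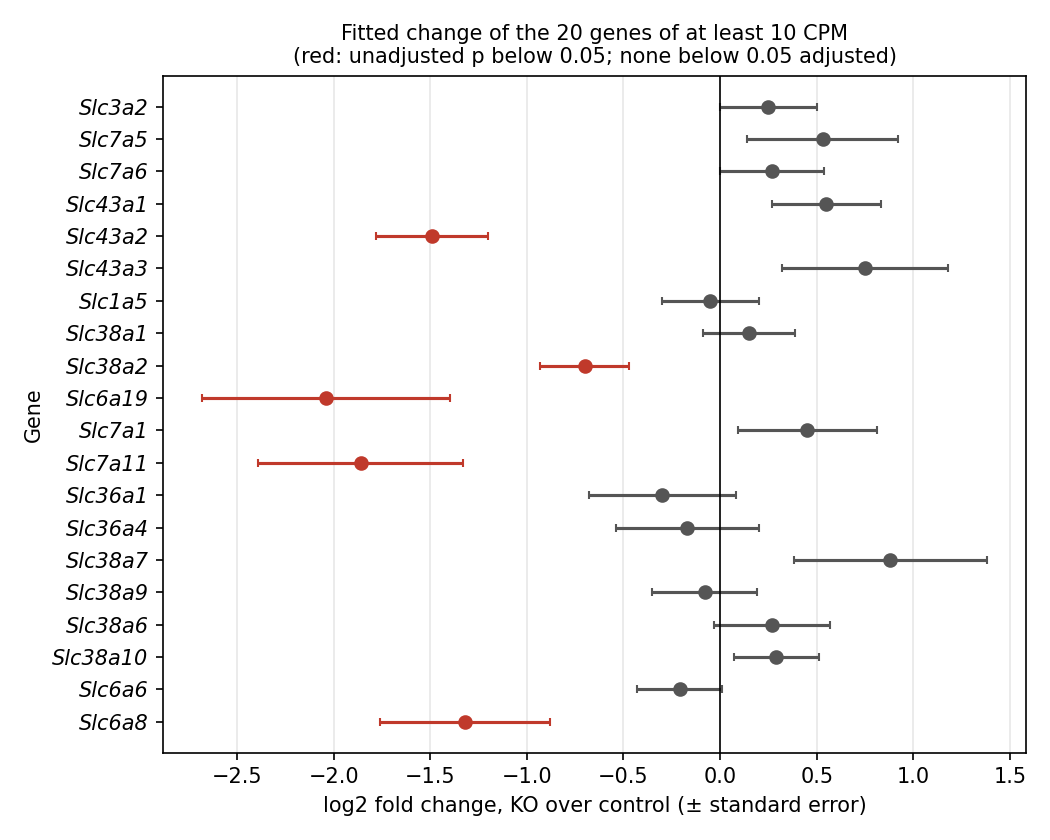
Log2 fold change, KO over control, of the 20 amino acid transporter genes of at least 10 CPM, with bars of 1 standard error and genes grouped by role from top to bottom. Red marks an unadjusted p below 0.05, which 5 genes had, all on the lower side, from -2.04 for Slc6a19 to -0.70 for Slc38a2.

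Summed over the 60 genes, the level was 1608 and 1588 CPM in KO 1 and KO 2, against 1940 and 2135 CPM in control 1 and control 2. Both KO sums were below both control sums, and the mean difference was -440 CPM. Slc43a2, Slc38a2 and Slc7a11, picked here after their values were seen, summed to 373 and 447 CPM in the KO libraries, against 818 and 992 CPM in the control libraries. The other 57 genes summed to 1235 and 1141 CPM in the KO libraries and 1122 and 1143 CPM in the control libraries, which overlapped. The mean difference of these 57 was 55.0 CPM, on the other side of 0. No test was made of these sums.

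**Figure D3:**
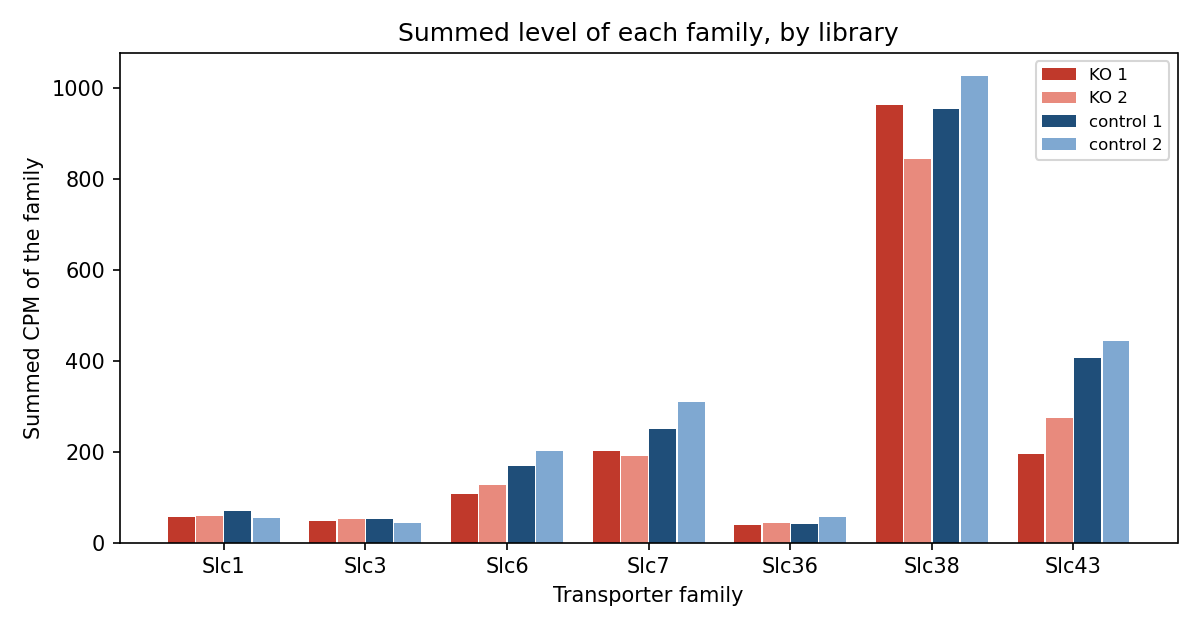
Summed CPM of each of the 7 transporter families in the 4 libraries, KO in red and control in blue. Slc43 shows the widest gap, at 194 and 273 CPM in KO libraries and 406 and 444 CPM in control libraries, the Slc6 and Slc7 bars also do not overlap, and the KO bars of Slc1, Slc3, Slc36 and Slc38 overlap the control bars.

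The Slc43 family held the member with the smallest p. Slc43a2 (chromosome 11, 75529915 to 75577575 on GRCm38), also called LAT4, lets branched-chain amino acids, methionine and phenylalanine pass without sodium. It had 90.7 and 161 CPM in KO 1 and KO 2, against 341 and 367 CPM in control 1 and control 2. Both KO libraries were well below both control libraries, and KO 1 was the lowest. The log2 fold change was -1.49 ± 0.29, with an unadjusted p of 0.000603 and an adjusted p of 0.0729 over all genes in edgeR's quasi-likelihood test. The adjusted p ran from 1.54e-11 to 0.315 over 11 other settings, and it was below 0.05 in 7 of them. Without KO replicate 2 the log2 fold change was -1.96 and passed the threshold, and without KO replicate 1 it was -1.10 and did not. Exons of a predicted gene on the opposite strand share 9.18% of its exon length, and whether counting used strand is not stated.

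The other 2 Slc43 genes did not share this direction. Slc43a1 (LAT3), which carries the same kind of amino acids as Slc43a2, had 70.8 and 91.0 CPM in KO 1 and KO 2, against 42.7 and 67.5 CPM in control 1 and control 2 (0.55 ± 0.28, adjusted p = 0.436). Both KO values were above both control values, by a small margin at the nearer edge. Leaving out control replicate 1 gave 0.26, and leaving out control replicate 2 gave 0.92. Slc43a3, which carries purine bases and not amino acids, had 33.0 and 21.7 CPM in the KO libraries and 22.4 and 10.3 CPM in the control libraries, which overlapped (0.75 ± 0.43, adjusted p = 0.483). For Slc43a3, the value was 1.41 with control replicate 1 left out and 0.29 with control replicate 2 left out. The family median of 0.55 and its lower summed level thus pointed in opposite directions, since Slc43a2 held most of the counts in the control libraries.

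Slc7a11 (chromosome 3, 50364936 to 50499087), also called xCT, takes up cystine in exchange for glutamate and so supplies cysteine for glutathione. It had 19.5 and 72.1 CPM in KO 1 and KO 2, against 122 and 209 CPM in control 1 and control 2. Both KO values were below both control values, but the higher KO value was 3.70 times the lower one. The log2 fold change was -1.86 ± 0.53 (unadjusted p = 0.00616, adjusted p = 0.179). Leaving out KO replicate 2 gave -3.09 and leaving out control replicate 1 gave -2.19, both past the threshold. Leaving out KO replicate 1 gave -1.17 and leaving out control replicate 2 gave -1.41, neither past it. DESeq2 called it, at -1.88.

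Slc38a2 (chromosome 15, 96687392 to 96699728), also called SNAT2, is a sodium-coupled carrier of glutamine, alanine and other neutral amino acids whose RNA is known to be induced when amino acids run short. It had 263 and 214 CPM in KO 1 and KO 2, against 356 and 416 CPM in control 1 and control 2. The groups did not overlap, and each pair of replicates was close. The log2 fold change was -0.70 ± 0.23 (unadjusted p = 0.0143, adjusted p = 0.233), and it lay between -0.81 and -0.55 under all 11 other settings.

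The sequence upstream of 4 of these members is shown because Cxxc1 binds CpG DNA and because genes of the amino acid response carry a known element, TGATGNAA, that the factor Atf4 can bind with a partner. The windows are the 250 bases before an annotated start, on the gene's strand, from RefSeq on GRCm38.p6. For Slc7a11 (chr3:50443614-50443863, minus strand) and Slc7a7 (chr14:54417945-54418194, minus strand, 1 of 5 annotated starts), capitals mark TGATGNAA on either strand.
Slc7a11: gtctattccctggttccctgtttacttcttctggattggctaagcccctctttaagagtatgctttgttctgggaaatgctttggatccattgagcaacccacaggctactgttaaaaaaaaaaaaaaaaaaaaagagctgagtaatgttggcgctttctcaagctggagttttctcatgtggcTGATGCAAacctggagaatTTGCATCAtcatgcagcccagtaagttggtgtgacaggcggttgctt
Slc7a7: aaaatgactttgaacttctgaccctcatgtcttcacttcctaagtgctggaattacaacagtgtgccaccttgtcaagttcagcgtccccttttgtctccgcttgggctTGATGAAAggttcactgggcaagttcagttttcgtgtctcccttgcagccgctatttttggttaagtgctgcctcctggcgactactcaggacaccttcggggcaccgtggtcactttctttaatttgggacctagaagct
For Slc43a2 (chr11:75531444-75531693, plus strand, 1 of 2 annotated starts) and Slc38a2 (chr15:96699729-96699978, minus strand), capitals mark CpG.
Slc43a2: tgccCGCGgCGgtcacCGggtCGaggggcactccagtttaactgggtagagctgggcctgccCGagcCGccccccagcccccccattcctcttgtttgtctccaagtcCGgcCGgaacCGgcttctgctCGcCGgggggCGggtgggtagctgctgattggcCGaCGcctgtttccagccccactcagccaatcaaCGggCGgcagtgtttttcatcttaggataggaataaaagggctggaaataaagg
Slc38a2: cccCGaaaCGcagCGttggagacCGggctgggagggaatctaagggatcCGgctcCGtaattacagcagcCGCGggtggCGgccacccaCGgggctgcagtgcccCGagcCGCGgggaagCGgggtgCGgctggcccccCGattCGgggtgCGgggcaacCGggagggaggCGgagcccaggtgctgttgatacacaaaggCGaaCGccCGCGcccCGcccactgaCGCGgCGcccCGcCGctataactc
The Slc7a11 window held 2 copies of the element, starting at -66 on the gene's strand and at -47 on the other strand, counted from the start site, and it held 2 CpG. The window of Slc7a7, the gene with the higher KO level described next, held 1 copy at -141 and 7 CpG; another of its 5 windows also held a copy. The windows of Slc43a2 and Slc38a2 held no copy, and they held 17 and 30 CpG. The other window of Slc43a2, not shown, held no copy and 32 CpG. Over 63 windows of 42 member genes, 4.76% had the element on either strand, against 3.45% of 32851 RefSeq windows of the same length. The E-box CACGTG, a motif that Myc can bind and that does not overlap the element in these windows, was in 14.3% of member windows against 6.02% of all, and in none of the 4 shown. The median number of CpG was 17 in the windows of 14 members of at least 10 CPM, 6.5 in those of the lower members and 6 over all windows. The 3 members with lower KO levels shown here thus ranged from CpG-poor to CpG-rich. These are counts of letters, and no binding was measured.

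Among the light chains of the Slc7 family, Slc7a7 was the single member of all 48 tested with a higher KO level at an unadjusted p below 0.05. Slc7a7 (chromosome 14, 54369442 to 54420068), also called y+LAT1, exports cationic amino acids in exchange for neutral ones and sodium. It had 349 and 282 counts in KO 1 and KO 2, against 41 and 62 counts in control 1 and control 2. This is 10.0 and 7.92 CPM in the KO libraries, against 3.45 and 1.79 CPM in the control libraries, with no overlap. The log2 fold change was 1.80 ± 0.58 (unadjusted p = 0.0125, adjusted p = 0.223). It passed the threshold without control replicate 1, at 2.32. Exons of Oxa1l on the opposite strand share 7% of its exon length.

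Slc7a5 (LAT1, chromosome 8, 121881146 to 121907686), the main leucine carrier of proliferating T cells, had 45.4 and 27.8 CPM in KO 1 and KO 2, against 33.7 and 17.5 CPM in control 1 and control 2. The 2 ranges overlapped, and the log2 fold change was 0.53 ± 0.39 (adjusted p = 0.621). Leaving out control replicate 1 gave 1.07, and leaving out control replicate 2 gave 0.12. Slc7a6 (y+LAT2), a close relative of Slc7a7, had 40.5 and 37.6 CPM in KO libraries, against 30.9 and 33.8 CPM in control libraries (0.27 ± 0.27, adjusted p = 0.732). Slc7a1 (CAT1), the arginine and lysine carrier, had 82.8 and 39.1 CPM in KO libraries, against 49.7 and 39.7 CPM in control libraries. Its KO libraries lay on either side of the controls (0.45 ± 0.36, adjusted p = 0.647), and without KO replicate 1 its log2 fold change was -0.16.

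The heavy chain Slc3a2 (chromosome 19, 8706882 to 8723369), which brings the light chains to the cell surface, had 44.8 and 47.9 CPM in KO 1 and KO 2, against 39.1 and 38.9 CPM in control 1 and control 2. Both KO values were above both control values, with close replicates, and the log2 fold change was small (0.25 ± 0.25, adjusted p = 0.741). The other heavy chain, Slc3a1 (rBAT, chromosome 17, 85028347 to 85064241), works in kidney and gut with Slc7a9 in cystine uptake. It had 3.01 and 3.46 CPM in KO 1 and KO 2, against 13.0 and 5.08 CPM in control 1 and control 2 (-1.47 ± 0.60, unadjusted p = 0.0362, adjusted p = 0.323). The groups did not overlap, but control 1 was 2.57 times control 2, and the log2 fold change moved with them. Leaving out control replicate 1 gave -0.65, and leaving out control replicate 2 gave -2.01, which passed the threshold. Prepl exons on the opposite strand share 26.5% of the exon length of Slc3a1, and how reads in shared exons were counted is not stated. Such reads could have been left out, or part of these counts could belong to Prepl. Its partner Slc7a9 had 1 and 2 counts in KO 1 and KO 2, against 11 and 57 counts in control 1 and control 2. Slc7a9 passed the filter through the control libraries alone and so had to be lower.

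**Figure D4:**
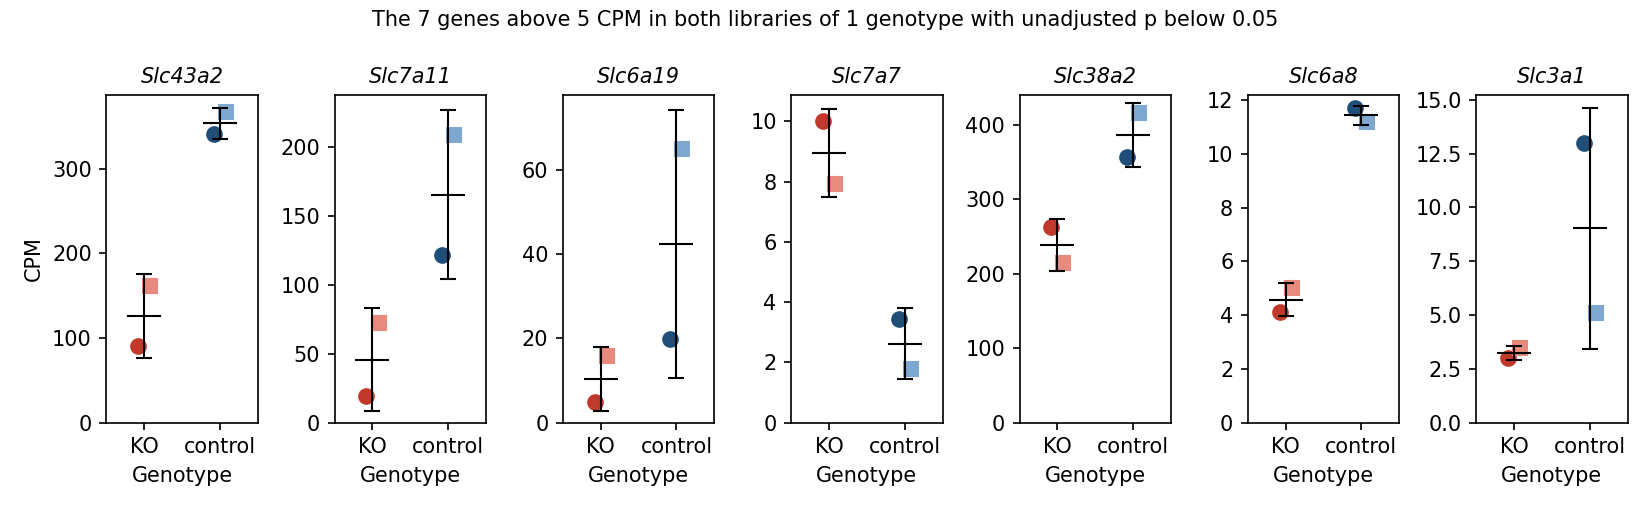
CPM of the 7 amino acid transporter genes with an unadjusted p below 0.05 and more than 5 CPM in both libraries of 1 genotype, each panel from 0 with its own scale, KO left of control; points are libraries, and bars show mean ± SD (n = 2). Slc7a7 is higher in both KO libraries and the other 6 are lower, with replicate points far apart for Slc7a11, Slc6a19 and the control libraries of Slc3a1.

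Of the remaining glutamine and neutral carriers, Slc38a1 and Slc1a5 overlapped between genotypes and Slc6a19 did not. Slc38a1 (SNAT1, chromosome 15, 96571418 to 96643438), a sodium-coupled glutamine carrier next to Slc38a2 on the same chromosome, had 464 and 334 CPM in KO 1 and KO 2, against 375 and 346 CPM in control 1 and control 2 (0.15 ± 0.24, adjusted p = 0.868). Its KO libraries enclosed both control libraries, unlike those of Slc38a2. Slc1a5 (ASCT2, chromosome 7, 16781334 to 16798274), which exchanges neutral amino acids including glutamine, had 54.3 and 55.9 CPM in KO libraries and 63.3 and 50.9 CPM in control libraries (-0.05 ± 0.25, adjusted p = 0.962). Its KO values lay between its control values. Slc6a19 (B0AT1, chromosome 13, 73679745 to 73700780), the sodium-coupled neutral carrier best known from gut and kidney, had 4.91 and 15.7 CPM in KO 1 and KO 2, against 19.8 and 64.8 CPM in control 1 and control 2. Its groups did not overlap, but replicates differed 3.20-fold in the KO and 3.28-fold in the control (-2.04 ± 0.64, unadjusted p = 0.0104, adjusted p = 0.211). It passed the threshold by DESeq2, at -2.06, and with control replicate 1 left out, at -2.65 (adjusted p = 0.00365). Leaving out control replicate 2 gave -0.94, leaving out KO replicate 1 gave -1.40 and leaving out KO replicate 2 gave -3.11, none of them past it.

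Carriers of the lysosome, through which amino acids are released to mTORC1, and less well known relatives did not pass the test, and of these Slc38a7 and Slc38a10 had groups that did not overlap. Slc38a9 (chromosome 13, 112656189 to 112738752), the lysosomal arginine sensor, had 91.8 and 136 CPM in KO 1 and KO 2, against 100 and 140 CPM in control 1 and control 2 (-0.08 ± 0.27, adjusted p = 0.944). The 2 genotypes covered nearly the same range. Slc36a1 (PAT1) had 13.9 and 26.5 CPM in KO libraries and 22.4 and 27.2 CPM in control libraries (-0.30 ± 0.38, adjusted p = 0.804). Slc36a4 (PAT4) had 23.7 and 15.5 CPM in KO libraries and 17.1 and 26.8 CPM in control libraries (-0.17 ± 0.37, adjusted p = 0.91). Slc38a7 (SNAT7), which exports glutamine from lysosomes, had 16.3 and 9.55 CPM in KO libraries and 9.42 and 4.79 CPM in control libraries, a narrow separation (0.88 ± 0.50, adjusted p = 0.483). Its value was 1.43 with control replicate 1 left out and 0.46 with control replicate 2 left out. Slc38a6 had 35.1 and 53.9 CPM in KO libraries and 33 and 40.8 CPM in control libraries. Slc38a6 and Slc38a10, whose substrates are less well known, had log2 fold changes of 0.27 ± 0.30 and 0.29 ± 0.22, with adjusted p-values of 0.775 and 0.626. Slc38a10 had 92.0 and 93.6 CPM in KO libraries, against 77.5 and 74.1 CPM in control libraries, a gap wider than its replicate spread that did not pass the test.

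Of the Slc6 genes of at least 10 CPM, Slc6a6 (chromosome 6, 91684048 to 91759063) carries taurine, and it averaged 98.6 ± 5.24 CPM in KO libraries and 114 ± 0.38 CPM in control libraries (SD, n = 2 each), without overlap (log2 fold change -0.21 ± 0.22, adjusted p = 0.742). Slc6a8 (chromosome X, 73673133 to 73682502) carries creatine, and it had 4.13 and 5 CPM in KO 1 and KO 2, against 11.7 and 11.2 CPM in control 1 and control 2. Its replicates were close and its groups well apart (-1.32 ± 0.44, unadjusted p = 0.0152, adjusted p = 0.238), and its log2 fold change stayed between -1.47 and -1.16 under 11 other settings without a call. Of all 15 tested Slc6 members, 10 had both KO libraries below both controls and 0 above. Of these 10, Slc6a2, Slc6a4 and Slc6a7 passed the filter through the control libraries alone and had to be lower. The family median was -1.77, the value of Slc6a4, which had to be lower. It was -2.37 to -1.11 under the alternatives. Those other than the 5 CPM minimum kept the same 15 genes, so its negative sign was partly fixed in advance. The 5 CPM minimum left 3 genes, with a median of -1.40. The family median rests on genes with few counts, since 12 of the 15 were under 10 CPM, and it is given as a description.

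**Figure D5:**
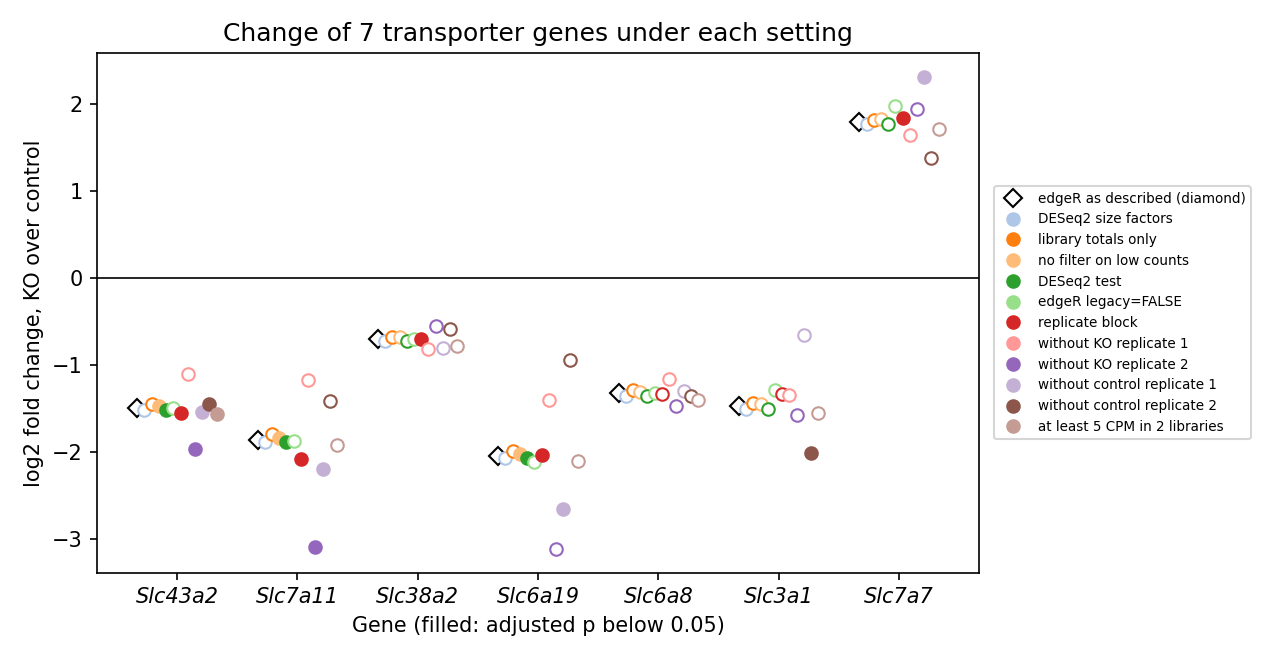
Log2 fold change, KO over control, of 7 amino acid transporter genes under the described edgeR test (diamond) and 11 alternative settings (circles), filled where the adjusted p was below 0.05. Directions are the same throughout, and Slc43a2 is filled in 7 of 11 alternatives, Slc7a11 in 5, Slc6a19 in 4, Slc7a7 in 2, Slc38a2 and Slc3a1 in 1 each, and Slc6a8 in 0.

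Replicates of the 20 genes of at least 10 CPM were further apart in the KO than genes of that level in general. The median absolute log2 difference between KO 1 and KO 2, with 0.5 CPM added, was 0.58 for these 20 and 0.29 for all 9774 genes. Between control 1 and control 2 it was 0.31 for both sets. A difference of at least 2-fold between the KO libraries was found in 3 of the 20, or 15%, against 4.64% of all genes of that level. Between the control libraries it was found in 2 of the 20, or 10.0%, against 7.13%. These values describe the libraries and have no test.

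Beyond the 7 families, 1 other amino acid carrier rose. Slc16a10 (TAT1), which lets the aromatic amino acids phenylalanine, tyrosine and tryptophan pass, had 103 and 76.4 CPM in KO 1 and KO 2, against 19.2 and 11.1 CPM in control 1 and control 2. The groups were far apart, with a log2 fold change of 2.58 ± 0.34 (adjusted p = 0.0212 in edgeR's quasi-likelihood test). The call ended without KO replicate 1, at 2.38 and an adjusted p of 0.101, and it held in the other 10 alternatives. It was the 1 called gene among 11 tested of a list of other amino acid and peptide carriers, with 0 lower and 10 not passing, against 0.27% of all tested genes called higher and 0.181% called lower, and the list median was -0.12. No test of the difference between Slc16a10 and Slc43a2, which share substrates, was made.

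Of the genes that sense amino acids or respond to their shortage, 0 were called by edgeR's quasi-likelihood test and a few by DESeq2. Of 34 tested genes between amino acid supply and mTORC1, both activators and inhibitors of mTORC1, 0 were called by edgeR. At an unadjusted p below 0.05, 4 were higher and 0 lower, against 6.97% higher and 6.91% lower of all tested genes. The 4 were Wdr59, Rragb, Nprl3 and Tbc1d7. Nprl3 and Tbc1d7 belong to complexes that inhibit mTORC1, so the count gives no direction of signalling. DESeq2 called 1, Wdr59 (adjusted p = 0.0389), against 4.74% of all genes. The list median was 0.04. The 2 smallest p-values were those of Wdr59, a subunit of the GATOR2 complex (1.21 ± 0.32, adjusted p = 0.159), and Rragb, a Rag GTPase (1.59 ± 0.62, adjusted p = 0.303). Rragb had 13 and 13.7 CPM in KO libraries, against 1.68 and 6.98 CPM in control libraries. Its value was 0.94 with control replicate 1 left out and 2.99 with control replicate 2 left out, where it passed the threshold (adjusted p = 0.00626). Wdr59 had 34.4 and 30.9 CPM in KO libraries, against 11.9 and 16.3 CPM in control libraries. Of 18 tested genes of the amino acid response around Eif2ak4 and Atf4, 0 were called by edgeR, and 4 were higher and 0 lower at an unadjusted p below 0.05, beside the same shares of all genes. DESeq2 called 2, Aldh18a1 (adjusted p = 0.0443) and Eif2ak4 (adjusted p = 0.0456), against 4.74% of all genes. The list median was 0.06. The 4 with an unadjusted p below 0.05 were Aldh18a1, Eif2ak4, Impact and Xpot. Atf4 itself (-0.02 ± 0.29), Ddit3 (-0.19 ± 0.29) and Asns (0.23 ± 1.21) overlapped between genotypes. Aldh18a1, an enzyme of proline synthesis, had 71.7 and 58.6 CPM in KO libraries, against 29.9 and 36.6 CPM in control libraries (0.97 ± 0.26, adjusted p = 0.163). Eif2ak4, the kinase GCN2 that senses uncharged tRNA, had 63.6 and 56.3 CPM in KO libraries, against 24.2 and 34.9 CPM in control libraries (1.02 ± 0.28, adjusted p = 0.174).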

How the data were processed

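Bulk RNA-seq of sorted DP thymocytes was analysed from the deposited raw counts per gene symbol, 1 file per library, with 2 libraries per genotype grouped by title. Libraries were made with a SMART-seq Standard kit from 10 ng of total RNA with an integrity number above 8, per the labels' protocols, without molecular identifiers, so counts are reads and floors cover counting error only. Reads were aligned with HISAT2, per the file headers. HISAT2 2.2.1 is also named in the submitters' processing notes, with featureCounts 2.0.8, cutadapt 4.0, the build mm10 and edgeR 3.36.0. The annotation, the strand setting and how multiply aligned reads were counted: not given in the sources used here.

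Counts were fitted in R 4.3.3 with edgeR 4.0.16 after filterByExpr (minimum count 10, minimum total count 15), which kept 20389 of 35976 symbols, and TMM scaling (factors 0.962 and 1.06 in KO 1 and KO 2, 0.981 and 0.997 in control 1 and control 2). The quasi-likelihood test had genotype as its only term, was two-sided, and was adjusted by Benjamini and Hochberg's method over all tested genes, with calls below 0.05. Each standard error is the size of the log2 fold change divided by the square root of this test's F statistic. It therefore restates the test and is not a separate measure of precision. The biological coefficient of variation was 57.4%. A floor of 3 counts was 0.0861, 0.0843, 0.252 and 0.0865 CPM in KO 1, KO 2, control 1 and control 2. An alternative used DESeq2 1.42.0, which left 396 genes without an adjusted p. The fits were tested on simulated data.

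Members and lists were chosen with earlier results of these data known. Members with a mean of at least 10 CPM in either genotype, called members and 12 preset carriers were named with values (20 genes in all); other members below that level, given with values for an unadjusted p below 0.05 or as a partner of a named gene, were named after their values were seen. Of each pathway list, called genes or the 2 with the smallest p were named. Gene spans and upstream sequences come from RefSeq (GRCm38.p6; mm10 is the same assembly). Exon lengths and overlaps are from GENCODE M21 on GRCm38, joined over all isoforms. Not every member under the filter is reported here by name.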

Additional observations from a re-analysis of the deposited data

How the results depend on the processing

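Over all genes, 92 were called, and the count was 920 with no filter on low counts, 228 at a minimum of 5 CPM in 2 libraries, 947 by DESeq2, and 9 to 619 when 1 library was left out, lowest without KO replicate 1. Of the amino acid transporter genes 0 were called, against 3 with no filter, 1 at the 5 CPM minimum, 4 by DESeq2, and 0 to 5 when 1 library was left out (0 without KO replicate 1, 2 without KO replicate 2, 5 without control replicate 1 and 2 without control replicate 2). With the replicate block, a term for the replicate number in the titles, 1599 genes and 5 transporter genes were called (Slc43a2, Slc7a11, Slc6a19 and Slc38a2 lower, Slc7a7 higher). The samples share only a number: deviations of same-numbered libraries correlated at -0.00956, and the block leaves 1 fewer residual degree of freedom.

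The share of calls that were higher was 59.8%, against 67.6% with library totals only, 48.2% at the 5 CPM minimum, 46.6% by DESeq2 and 45.6% without KO replicate 2. The median log2 fold change of the tested members was -0.58, against -0.04 for all tested genes. Of these members, 5 passed the filter through the control libraries alone and had to be lower. The sign of this median was therefore partly fixed in advance, and nothing is read from it. The member median was -0.03 at the 5 CPM minimum, where 22 members remained, and -1.21 to -0.37 when 1 library was left out. For the 20 genes of at least 10 CPM it lay between -0.03 and 0.15. When 1 library was left out, the sign turned for Slc1a5 (-0.20 to 0.11), Slc7a1 (-0.16 to 0.89), Slc36a1 (-0.84 to 0.13), Slc36a4 (-0.47 to 0.20), Slc38a1 (-0.07 to 0.37), Slc38a6 (-0.07 to 0.58) and Slc38a9 (-0.39 to 0.22). The causes were not tested. The sign of the other 24 of 31 genes followed held in all 11 alternatives that could be fitted, although genes under the 5 CPM minimum had no value there. Control 1 had 12150508 counts, the fewest, so its low levels are the least precise.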

Other observations

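Of the members under 10 CPM with an unadjusted p below 0.05, 3 are not described above. The noradrenaline carrier gene Slc6a2 had 4 and 7 counts in KO 1 and KO 2, against 28 and 137 counts in control 1 and control 2, a log2 fold change of -4.31 ± 1.16 (adjusted p = 0.162 in edgeR's quasi-likelihood test, called by DESeq2). The glutamate carrier gene Slc1a2 had 2 and 8 counts in KO libraries, against 20 and 85 counts in control libraries, and the betaine carrier gene Slc6a12 had 16 and 5 counts in KO libraries, against 32 and 73 counts in control libraries. Slc6a2 and Slc1a2 passed the filter through the control libraries alone and so had to be lower, and nothing is read from their direction.

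Of the 28 tested members under 10 CPM, 14 had their highest CPM in control 1, or 50%, against 34.8% of all 10615 tested genes of that level. The highest value was in control 2 for 9 of the 28, in KO 1 for 2 and in KO 2 for 3. The filter was passed only through the control libraries by 5 of the 28 and only through the KO libraries by 0, against 1150 and 413 of all tested genes of that level. Members that passed through 1 genotype had to differ, so these counts describe the libraries, and the part of the lower depth of control 1 was not tested.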
